A study of Mus musculus with 63 samples.

Results

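The myeloid-attracting chemokines described here are 8 secreted proteins encoded by Ccl2, Ccl7, Ccl12, Ccl3, Ccl4, Cxcl1, Cxcl2 and Cxcl5. They were taken by name, out of 19938 genes measured, and their probe sets were chosen by the mean log2 level over all arrays, the highest standing for a gene. Each of the 8 had exactly 1 single-symbol probe set, so this step selected nothing, and it did not use the treatment. The list itself was drawn up with earlier results of these data known, the raised Ccl2, Cxcl1 and Cxcl2 among them. The counts of these genes past a threshold below are therefore a description and no independent support.

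The arrays measured RNA of lymphomas from Emu-myc transgenic mice on a C57BL/6 background. In these mice an immunoglobulin heavy-chain enhancer drives Myc in B-lineage cells, and B-cell lymphomas arise. Lymph node cells were lysed without purification, so each array also holds RNA of host cells. There were 31 arrays labelled CTX 4h, taken 4 h after cyclophosphamide (CTX, an alkylating drug given at 300 mg/kg where stated, for 29 of them), and 32 labelled native, that is, without the drug. The treatment protocol describes recipient mice carrying transplanted lymphomas, and the design text mentions untreated samples alone. The labels do not settle which of these hosts the native samples had, so host, if it differed, and treatment cannot be told apart. Ages are not given, nor whether arrays stand for separate mice. The p-values thus weigh differences against the spread of arrays, which may in part be technical. Each array carried its own lymphoma number, so no native array was matched to a treated one.

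Labelling started from 100 ng RNA (29 CTX 4h and 15 native arrays) or 300 ng (2 CTX 4h and 17 native arrays). The 100 ng arrays fell into 3 number series by the first digit of the lymphoma number, with 6 CTX 4h and 7 native arrays in series 1, 9 and 3 in series 8, and 14 and 5 in series 9. The labels do not say what the first digit stands for. Values are log2 expression levels, and array medians ran from 6.53 to 7.11. The B-cell gene Cd79b, which encodes a chain of the B-cell receptor, was high in every array, between 12.37 and 13.44. Other B-cell markers varied more, with Cd79a down to 8.38, Ms4a1 down to 7.54 and Blk down to 6.25. Of these, Blk alone was not above its array's median in all arrays (61 of 63). Native replicate 25 stood apart, with the lowest mean correlation to the other arrays (0.904) and a Myc level of 11.39. CTX 4h replicate 22 had the lowest mean correlation of its group (0.938). Without both, the count of chemokines that passed in the comparison of the groups was the same, 7.

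Chemokines are small proteins that guide leukocytes along a gradient by way of G-protein-coupled receptors. CCL2, CCL7 and CCL12 act through CCR2 on inflammatory monocytes and draw them from marrow and blood into tissue. CCL3 and CCL4 act on monocytes, macrophages and T cells, CCL3 in part through CCR1. CXCL1, CXCL2 and CXCL5 act through CXCR2 and chiefly recruit neutrophils. Macrophages, stromal cells and activated lymphocytes all can secrete some of them, and NF-kB is a known inducer of many of these genes.

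The first comparison asks which of these chemokines differed in lymphomas taken shortly after cyclophosphamide. In CTX 4h lymphomas 7 of the 8 were higher than in native lymphomas and 0 lower, with Ccl4 the one that did not pass (limma with RNA input in the model, Benjamini-Hochberg adjusted p under 0.05 over all genes). Of all genes, 1.41% were called higher and 1.26% lower. The largest increases were those of the monocyte chemokine genes Ccl2 and Ccl7, at about 1.3 on the log2 scale, and the smallest among those called were Cxcl5 and Cxcl1. The median difference of the 8 genes was 0.76 log2, against -0.011 over all genes. In whole tissue, more cells of a producing type and more RNA per cell cannot be told apart. The count fell to 0 of 8 in the 100 ng arrays alone and to 1 of 8, Ccl7, without both 300 ng CTX 4h arrays.

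Among the ligands of CCR2, Ccl2 encodes the principal monocyte attractant. Its log2 level in CTX 4h lymphomas was 6.72 at the lowest, 8.68 at the median and 11.10 at the highest (n = 31), against 6.60, 7.61 and 9.03 in native lymphomas (n = 32). The groups overlapped in their lower part, but 28 of the 31 treated arrays exceeded the native median and 12 exceeded every native array. The difference was 1.33 ± 0.27 log2 (SE, adjusted p = 0.00233), a 2.52-fold higher level with a 95% confidence interval of 1.74 to 3.65.

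Ccl7 encodes another ligand of the same receptor, which also acts on other leukocytes. Its log2 levels ran from 6.78 over a median of 8.44 to 10.79 in CTX 4h and from 6.52 over 7.53 to 8.81 in native lymphomas. Again 12 treated arrays exceeded all native ones, and 25 of 31 exceeded the native median. Ccl7 rose by 1.31 ± 0.25 log2 (SE, adjusted p = 0.0015).

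Ccl12, a mouse gene for a further CCR2 ligand, lay at lower log2 levels on its probe set, from 5.26 over 6.00 to 7.38 in CTX 4h against 5.01, 5.70 and 6.20 in native lymphomas. The groups overlapped over most of the native range, with 22 of the 31 treated arrays above the native median and 13 above every native array. The increase was 0.62 ± 0.13 log2 (SE, adjusted p = 0.00409).

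Of Ccl3 and Ccl4, which encode the macrophage inflammatory proteins 1 alpha and 1 beta, only Ccl3 passed. Ccl3 had log2 levels of 6.93, 8.79 and 11.36 (lowest, median and highest) in CTX 4h and 6.39, 8.16 and 9.50 in native lymphomas. It rose by 1.06 ± 0.27 log2 (SE, adjusted p = 0.0158), and 24 treated arrays exceeded the native median. This call was lost without CTX 4h replicate 1 (adjusted p = 0.0733) or replicate 2 (0.0518), the 300 ng arrays. Ccl4 had log2 levels of 5.66, 6.03 and 7.06 against 5.51, 5.95 and 6.73, so that the groups covered nearly the same range. Its difference of 0.23 ± 0.097 log2 (SE, adjusted p = 0.206) did not pass, and its 95% confidence interval ran from 0.032 to 0.421. The Ccl4 probe set was dim, above its array's median in 3 of 63 arrays, against 62 for Ccl3. Differences of dim genes are compressed, so the 2 estimates are not on an equal footing. Whether Ccl3 and Ccl4 differ from each other in their response was not tested. Their extents overlap in the RefSeq table, and a sharing of signal between their probe sets was not tested either.

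Of the ligands of CXCR2, Cxcl2 had the most uneven levels. In most treated arrays it lay near the native ones and in a few far above, with log2 levels of 4.63, 5.50 and 8.97 (lowest, median and highest) against 4.70, 5.18 and 5.97. Its difference was 0.91 ± 0.21 log2 (SE, adjusted p = 0.0066), and 24 treated arrays exceeded the native median and 10 exceeded every native array.

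Cxcl1, which encodes the chemokine also called KC, had a narrower spread, at log2 levels of 6.61, 7.16 and 8.14 in CTX 4h against 6.39, 6.88 and 7.28 in native lymphomas. It rose by 0.39 ± 0.086 log2 (SE, adjusted p = 0.00572), and 11 treated arrays lay above every native array. Cxcl5, which encodes the chemokine called LIX, had log2 levels of 4.87, 5.34 and 7.66 against 4.81, 5.12 and 5.69, with 4 treated arrays above every native one. Its difference of 0.37 ± 0.11 log2 (SE) lay close to the threshold (adjusted p = 0.0433). Leaving out any of 17 arrays ended the call, CTX 4h replicates 1, 2, 4, 5, 8, 9, 11, 13, 14, 23 and 25 and native replicates 26, 27, 28, 29, 31 and 32. Without CTX 4h replicate 2, where Cxcl5 was highest, the difference was 0.20 log2 (adjusted p = 0.185).

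**Figure D1:**
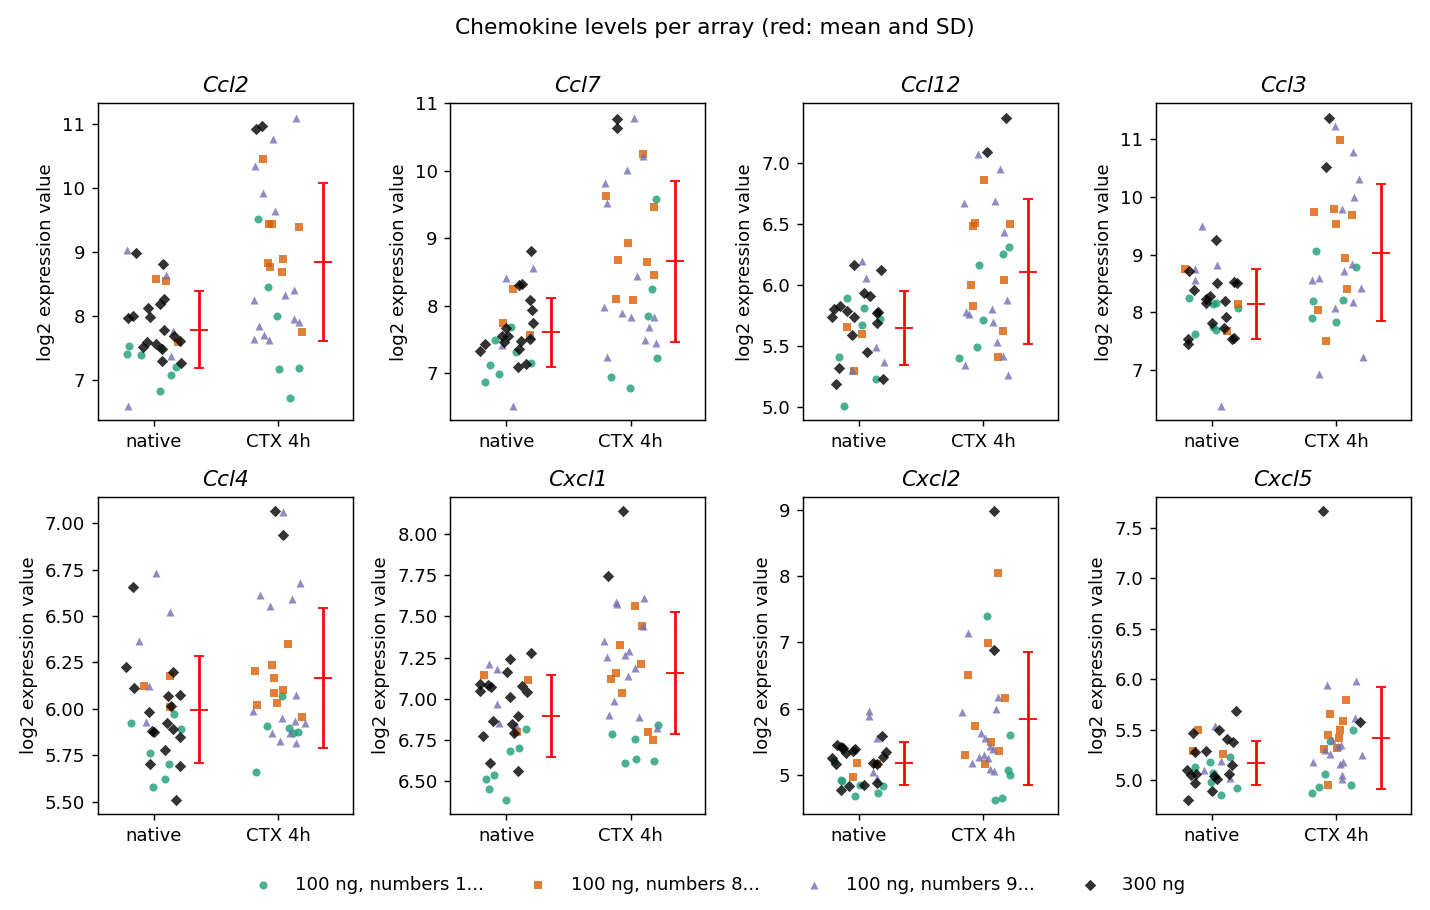
Log2 expression level of each chemokine gene (y axis) in each array, native and CTX 4h side by side. Points are arrays, marked by number series for 100 ng and by a diamond for 300 ng, and red marks are the mean and SD of 32 native or 31 CTX 4h arrays. For each of the 8 genes some treated arrays, from 3 for Ccl4 to 13 for Ccl12, lie above every native array, and the other treated arrays do not.

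The proximal promoters are shown for the genes with an entry in the RefSeq promoter table (4 of 8), because NF-kB is a common inducer of these genes. They are Cxcl1, Cxcl2, Ccl12 and Ccl3. Each run holds the 250 bases before the annotated start in assembly GRCm38.p6, 5′ to 3′ on the gene's own strand, with matches to the NF-kB consensus in capitals. Cxcl1 lies on the plus strand at chr5:90890995-90891244, Cxcl2 on the plus strand at chr5:90903649-90903898, Ccl12 on the plus strand at chr11:82101595-82101844 and Ccl3 on the minus strand at chr11:83649379-83649628.
Cxcl1: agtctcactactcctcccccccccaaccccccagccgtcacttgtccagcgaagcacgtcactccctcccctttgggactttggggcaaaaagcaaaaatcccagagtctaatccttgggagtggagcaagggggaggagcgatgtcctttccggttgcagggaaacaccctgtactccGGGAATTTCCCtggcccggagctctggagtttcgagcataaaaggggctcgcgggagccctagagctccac
Cxcl2: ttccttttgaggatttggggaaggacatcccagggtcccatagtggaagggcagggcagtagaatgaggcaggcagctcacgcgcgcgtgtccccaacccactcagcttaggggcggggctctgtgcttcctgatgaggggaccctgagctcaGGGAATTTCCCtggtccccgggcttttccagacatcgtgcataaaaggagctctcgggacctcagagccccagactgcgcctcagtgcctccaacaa
Ccl12: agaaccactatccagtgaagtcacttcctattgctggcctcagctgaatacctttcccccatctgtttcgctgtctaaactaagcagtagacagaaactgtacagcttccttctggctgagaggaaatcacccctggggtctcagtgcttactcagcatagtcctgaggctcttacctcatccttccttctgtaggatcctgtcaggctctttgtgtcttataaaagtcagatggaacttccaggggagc
Ccl3: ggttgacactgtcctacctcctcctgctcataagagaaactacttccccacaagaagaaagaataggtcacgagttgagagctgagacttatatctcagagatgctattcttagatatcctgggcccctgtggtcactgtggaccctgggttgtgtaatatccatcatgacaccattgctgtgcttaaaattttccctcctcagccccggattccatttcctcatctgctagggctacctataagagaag

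In the Cxcl1 and Cxcl2 promoters the capitals are 2 overlapping matches on opposite strands, GGGAATTTCC and GGAATTTCCC. They span bases -71 to -61 before the start of Cxcl1 and -97 to -87 before that of Cxcl2. The NF-kB consensus searched for leaves several positions open to other bases, so it is wider than these letters. The Ccl12 and Ccl3 windows held no match to that consensus on either strand. Of 32851 promoter windows of this length, 7.25% held a match to it on either strand. The AP-1 motif (TGACTCA or its reverse complement, TGAGTCA) and the cAMP response element TGACGTCA, searched on both strands, were in none of the 4 windows and in 4.46% and 1.55% of all windows. The letters TATAAA were found on the gene's strand in the Ccl12 window at -31 to -26. On either strand they were in 12.4% of all windows. A match describes the letters of the window and does not show that a factor bound there.

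High chemokine levels were concentrated in part of the treated arrays. Of 31 CTX 4h arrays, 11 had 4 or more of the 8 genes above every native array, 6 had 6 or more, and 10 had none. CTX 4h replicate 2 had all 8 above every native array, and replicates 1, 14 and 25 had 7 each. By set, 2 of 2 arrays at 300 ng, 4 of 9 in series 8 and 5 of 14 in series 9 had at least 4 genes above the native range, and 0 of 6 in series 1. For 6 of the 8 genes, 10 or more treated arrays lay above every native array, which held for 0.366% of all genes.

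The spread among treated arrays was correspondingly wide. The SD of CTX 4h over that of native arrays was 2.05 for Ccl2, 2.32 for Ccl7, 1.96 for Ccl12 and 1.98 for Ccl3. It was 3.15 for Cxcl2, 2.34 for Cxcl5, 1.51 for Cxcl1 and 1.31 for Ccl4, where the median over all genes was 0.961. At 100 ng alone these ratios ran from 0.974 for Ccl4 to 2.10 for Cxcl2, against a median of 0.879 over all genes. These ratios are given without a test.

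The next comparison asks whether the difference was present within each RNA input and number series. The direction of the means was shared. All but Ccl4, 7 of the 8 genes, had a higher mean in CTX 4h in the 300 ng set and each number series. The same held for 8.85% of all genes. Medians were lower in CTX 4h for Ccl3 (8.65 against 8.75) and Cxcl2 (5.42 against 5.56) in series 9. In series 1 that of Cxcl5 was lower (5.01 against 5.07). All other medians of these 7 genes were higher in CTX 4h. The size of the differences was not shared. At 300 ng, with 2 treated arrays, each difference was larger than in any of the 3 series.

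At 300 ng the CTX 4h replicates 1 and 2 had log2 levels of 10.97 and 10.92 for Ccl2, against at most 8.98 in 17 native arrays. For Ccl7 they had 10.78 and 10.63 against at most 8.81, and for Ccl3 11.36 and 10.52 against at most 9.26. Both treated arrays thus stood clear of the native ones for these genes. Cxcl2 was at 6.88 in replicate 1 and 8.97 in replicate 2 (native up to 5.60), and Cxcl5 at 5.57 and 7.66 (native up to 5.69). Of the pair, replicate 2 had the higher Cxcl2 and Cxcl5 levels, and Cxcl5 in replicate 1 lay within the native range. At 300 ng 7 of the 8 genes did not overlap between the groups, as was true of 2% of all genes. In series 1, 8 and 9 all 8 overlapped, where 0.0451%, 0.396% and 0% of all genes did not.

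Within the 300 ng set all 8 genes passed (limma), where 1.19% of all genes were called higher. The differences were 3.05 ± 0.33 log2 for Ccl2 (SE, adjusted p = 3.77e-05), 3.01 ± 0.31 for Ccl7 (adjusted p = 3.60e-05) and 2.80 ± 0.35 for Ccl3 (adjusted p = 1.92e-04). Cxcl2 differed by 2.70 ± 0.30 log2 (SE, adjusted p = 4.85e-05), Ccl12 by 1.53 and Cxcl5 by 1.43. Even Ccl4 (1.04) and Cxcl1 (0.97) were about 1 log2 unit higher there. Marker scores of other cells also stood apart in these 2 arrays. The macrophage score was 0.80 to 1.24 against at most 0.42 in the native 300 ng arrays, the stromal score 0.71 to 0.99 against at most 0.46 and the adipocyte score 1.53 to 1.68 against at most 1.06. The B-cell score differed by -0.81 log2, and both arrays lay within the native range of that score. The part of these shifts in the 300 ng differences was not tested. Leaving out either treated array leaves 1, so only differences are given for that. Without CTX 4h replicate 2 they were 1.10 log2 for Ccl4, 0.78 for Cxcl1 and 0.39 for Cxcl5. Without replicate 1 that of Ccl4 was 0.97.

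Within number series 1, 8 and 9, no chemokine passed, and 0 of 19938 genes did (limma, adjusted p under 0.05). At an unadjusted p under 0.05, 0, 2 and 0 of the 8 passed (Ccl7 and Ccl12 in series 8), against 3.89%, 5.8% and 3.02% of all genes. Ccl2 was higher by 0.56, 0.83 and 0.93 log2 in the 3 series, and Ccl7 by 0.54, 1.06 and 0.89. These CCR2 ligands differed in the same direction in each series, with wide intervals, for Ccl2 in series 9 from -0.22 to 2.09. Ccl12 was higher by 0.36, 0.62 and 0.34 log2, and Ccl3 by 0.37, 0.99 and 0.57. Cxcl1 had differences of 0.12 to 0.22, Cxcl5 of 0.064 to 0.18 and Ccl4 of -0.14 to 0.10. Cxcl2 was uneven, at 0.51, 0.97 and 0.12 log2.

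Across all 100 ng arrays, with the number series not held, 0 of the 8 passed by limma. At an unadjusted p under 0.05, 7 did so, as did 11.2% of all genes. The differences were 1.02 ± 0.31 log2 for Ccl2 (SE, adjusted p = 0.17) and 1.01 ± 0.29 for Ccl7 (adjusted p = 0.147). They were 0.75 ± 0.30 log2 for Ccl3 (SE, adjusted p = 0.34) and 0.58 ± 0.22 for Cxcl2 (adjusted p = 0.283). Only 0.15% of all genes were called higher in this fit of a smaller set of arrays. With the number series held, a setting chosen after seeing the data, Ccl2, Ccl7, Ccl3 and Cxcl2 differed by 0.78, 0.81, 0.60 and 0.47 log2. Their adjusted p then ran from 0.481 to 0.807 (limma), and Ccl4 was at -0.014. With the 4 sets in the model in place of RNA input, Ccl2, Ccl7, Ccl12, Cxcl1 and Cxcl2 passed, 5 of the 8, where 0.722% of all genes were called higher. Ccl3 (0.96 log2, adjusted p = 0.0647) and Cxcl5 (0.33, adjusted p = 0.149) lost their calls.

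**Figure D2:**
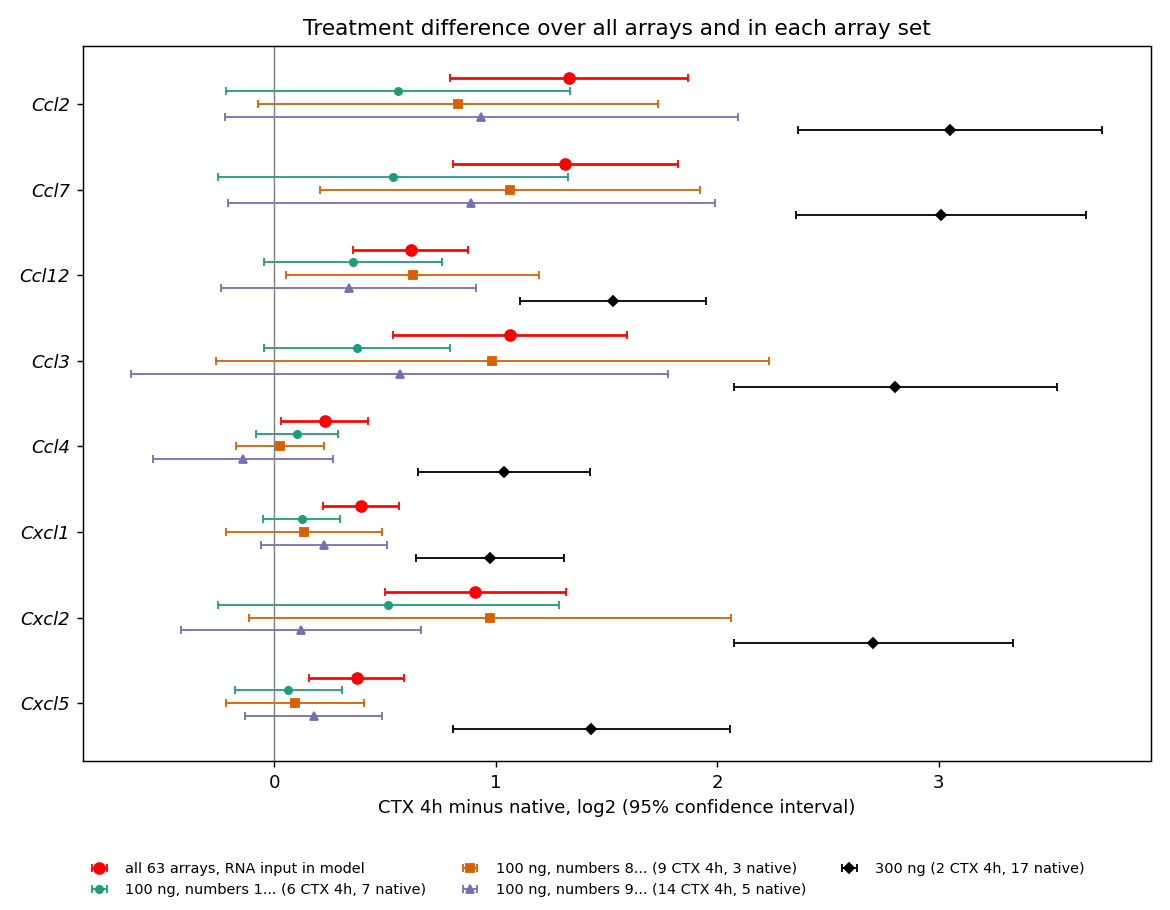
CTX 4h minus native on the log2 scale (x axis) for each chemokine gene, over all 63 arrays and within each number series or the 300 ng set. Points are estimates and bars 95% confidence intervals from limma. The 300 ng estimates, from 2 treated arrays, lie between 0.97 and 3.05 and to the right of the 100 ng ones for every gene.

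The difference between the sets was tested itself. The interaction of treatment with the 4 sets passed for 0 of the 8 genes and 0 genes in all (limma F test, adjusted p from 0.149 to 0.91 for the 8). At an unadjusted p under 0.05 all 8 passed, against 4.66% of all genes. The interaction with RNA input passed for Cxcl5, whose difference was greater by 1.25 log2 at 300 than at 100 ng (adjusted p = 0.0397), and for 0.0201% of all genes. Cxcl5 at 300 ng was 1.43 log2 higher with both treated arrays and 0.39 without CTX 4h replicate 2.

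RNA input itself was compared among native lymphomas. For none of the 8 chemokines did a difference pass between 17 arrays from 300 ng and 15 from 100 ng (limma, adjusted p from 0.457 to 0.98, and 0 of 8 at an unadjusted p under 0.05). Ccl2 was at 7.89 ± 0.48 log2 (SD, n = 17) and 7.67 ± 0.71 (SD, n = 15), and Cxcl1 had a difference of 0.15 ± 0.086 (SE). Of all genes, 0.15% were called and 13% had an unadjusted p under 0.05.

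The last planned comparison concerned the relation to macrophages across lymphomas. The macrophage score is the mean of 20 marker genes after centring each over all arrays, in log2 units. Among its markers, Lyz2 (11.36 to 13.73), which encodes lysozyme, and the complement gene C1qb (9.94 to 12.47) were above their array's median in all 63 arrays. Cd14 was so in 32 arrays, the scavenger receptor gene Cd163 in 1 and Vsig4, which encodes a complement receptor, in 0. The score ran from -0.90 to 1.24 in CTX 4h and from -0.59 to 0.42 in native lymphomas. With RNA input held it was higher in CTX 4h by 0.30 ± 0.11 (SE). Within series 1, 8 and 9 its difference was 0.18, 0.16 and 0.22, and at 300 ng, with 2 treated arrays, 1.10. Of the 20 markers 2 were called higher by limma, Cd14 (0.96 log2, adjusted p = 1.87e-05), which encodes a lipopolysaccharide co-receptor, and Fcgr1 (0.51, adjusted p = 0.0115), which encodes an Fc receptor. The difference was positive for 18 of the 20. At an unadjusted p under 0.05, 10 of the 20 passed, against 17.5% of all genes.

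Among CTX 4h lymphomas, with RNA input held, 4 of the 5 CC chemokines rose with this score, and Ccl4 and the CXC chemokines did not pass. Per unit of score Ccl3 was higher by 1.65 ± 0.35 log2 (SE, adjusted p = 0.00455), Ccl2 by 1.52 ± 0.38 (adjusted p = 0.0182), Ccl7 by 1.44 ± 0.37 (adjusted p = 0.0228) and Ccl12 by 0.79 ± 0.17 (adjusted p = 0.00589). By limma these were 4 of the 8, against 3.23% of all genes with a positive slope called. Ccl4 had a slope of 0.34 ± 0.12 (SE, adjusted p = 0.114). With the 4 sets in place of RNA input Ccl4 passed as well (0.41, limma, adjusted p = 0.0272). Then 5 of the 8 passed, and 866 of all genes in either direction. The values that follow are again with RNA input held. Cxcl1 had 0.0070 ± 0.14 (adjusted p = 0.986), Cxcl2 0.34 ± 0.35 (adjusted p = 0.641) and Cxcl5 0.19 ± 0.17 (adjusted p = 0.585). The difference between the CC and CXC slopes was not tested. The 4 highest scores belonged to CTX 4h replicates 1 (1.24), 14 (0.92), 2 (0.80) and 25 (0.72), the same 4 arrays in which 7 or 8 chemokines exceeded all native arrays.

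Correlation with the score was computed as well, for both groups without RNA input held, whereas the slopes over each group held it. In CTX 4h lymphomas (n = 31) Ccl12 had r = 0.73 and rho = 0.66 (permutation, adjusted p = 0.00211 and 0.00637 over all genes). Ccl3 had r = 0.72 and rho = 0.62 (permutation, adjusted p = 9.49e-04 and 0.0148), Ccl2 r = 0.68 and rho = 0.62 (adjusted p = 0.00361 and 0.0119, permutation) and Ccl7 r = 0.67 and rho = 0.60 (adjusted p = 0.00475 and 0.0179, permutation). For Ccl4 r was 0.62 and rho 0.50 (permutation, adjusted p = 0.0073 and 0.0675), so that only r passed. By r 5 of the 8 and by rho 4 passed, against 6.97% and 5.55% of all genes. Cxcl5 (r = 0.45, rho = 0.43), Cxcl2 (0.40 and 0.35) and Cxcl1 (0.29 and 0.21) did not pass by either (adjusted p from 0.097 to 0.55, permutation). Raw permutation p-values of the 8 ran from 1e-05, the smallest these permutations can give, to 0.249. Without the 2 arrays farthest from the median score, CTX 4h replicates 1 and 15, r was 0.64 for Ccl2, 0.64 for Ccl7, 0.71 for Ccl12, 0.63 for Ccl3 and 0.55 for Ccl4. It was 0.51 for Cxcl5, 0.41 for Cxcl2 and 0.26 for Cxcl1.

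Within the number series the relation was called in series 9, for 4 of the 8 chemokines and 1.94% of all genes. There, over 14 arrays, the slopes were 2.03 ± 0.29 log2 per unit for Ccl3 (SE, adjusted p = 0.00161), 1.91 ± 0.32 for Ccl2 (adjusted p = 0.00473), 1.71 ± 0.35 for Ccl7 (adjusted p = 0.0165) and 0.87 ± 0.19 for Ccl12 (adjusted p = 0.0245). Also in series 9, Ccl4, Cxcl2 and Cxcl5 had slopes of 0.53, 0.59 and 0.35. They did not pass (limma, adjusted p = 0.0839, 0.198 and 0.177) but had an unadjusted p under 0.05, unlike Cxcl1. In series 8, over 9 arrays, the slopes of Ccl3, Ccl2, Ccl7 and Ccl12 lay between 0.81 and 1.98. No gene passed there by limma, and Ccl7 was the only one of the 8 with an unadjusted p under 0.05 (0.0102). In series 1, over 6 arrays, Ccl2, Ccl7 and Ccl3 had slopes of -0.083, -0.23 and -0.19 and Ccl12 one of 0.49, and again no gene passed, nor did any of the 8 have an unadjusted p under 0.05. The 300 ng set holds too few treated arrays for a slope. Without Cd14 and Fcgr1 in the score, Ccl7 lost its call (adjusted p = 0.0547) and Ccl2, Ccl12 and Ccl3 kept theirs.

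Among native lymphomas none of the 8 followed the score (limma, adjusted p from 0.592 to 0.973, and 0 of 8 at an unadjusted p under 0.05). Of all genes, 0.527% passed. The slope of Ccl2 was 0.18 ± 0.44 (SE), with a 95% confidence interval of -0.72 to 1.07, and that of Ccl7 0.47 ± 0.37. Correlations ranged from r = -0.24 for Ccl4 to 0.23 for Ccl7 and from rho = -0.21 to 0.28 (permutation, adjusted p from 0.611 to 0.993 for r and from 0.814 to 0.996 for rho). Without native replicates 4 and 9, the arrays farthest from the median score, r ran from -0.24 to 0.20. Within native series 1, over 7 arrays, Ccl7 had a slope of 1.18 ± 0.33 (SE, adjusted p = 0.411), the only one of the 8 with an unadjusted p under 0.05, and at 300 ng none had. The score covered a narrower range in native than in CTX 4h lymphomas.

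The slope itself was compared between the groups, and the difference passed for 0 of the 8 and for 0 genes in all (limma, adjusted p = 0.9999 for each of the 8). At an unadjusted p under 0.05, 4 of the 8 passed, Ccl2, Ccl12, Ccl3 and Ccl4, as did 1.79% of all genes. The slope of Ccl2 was greater in CTX 4h by 1.48 ± 0.64 (SE), with a 95% confidence interval of 0.21 to 2.75. A relation in treated lymphomas alone is thus not shown.

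**Figure D3:**
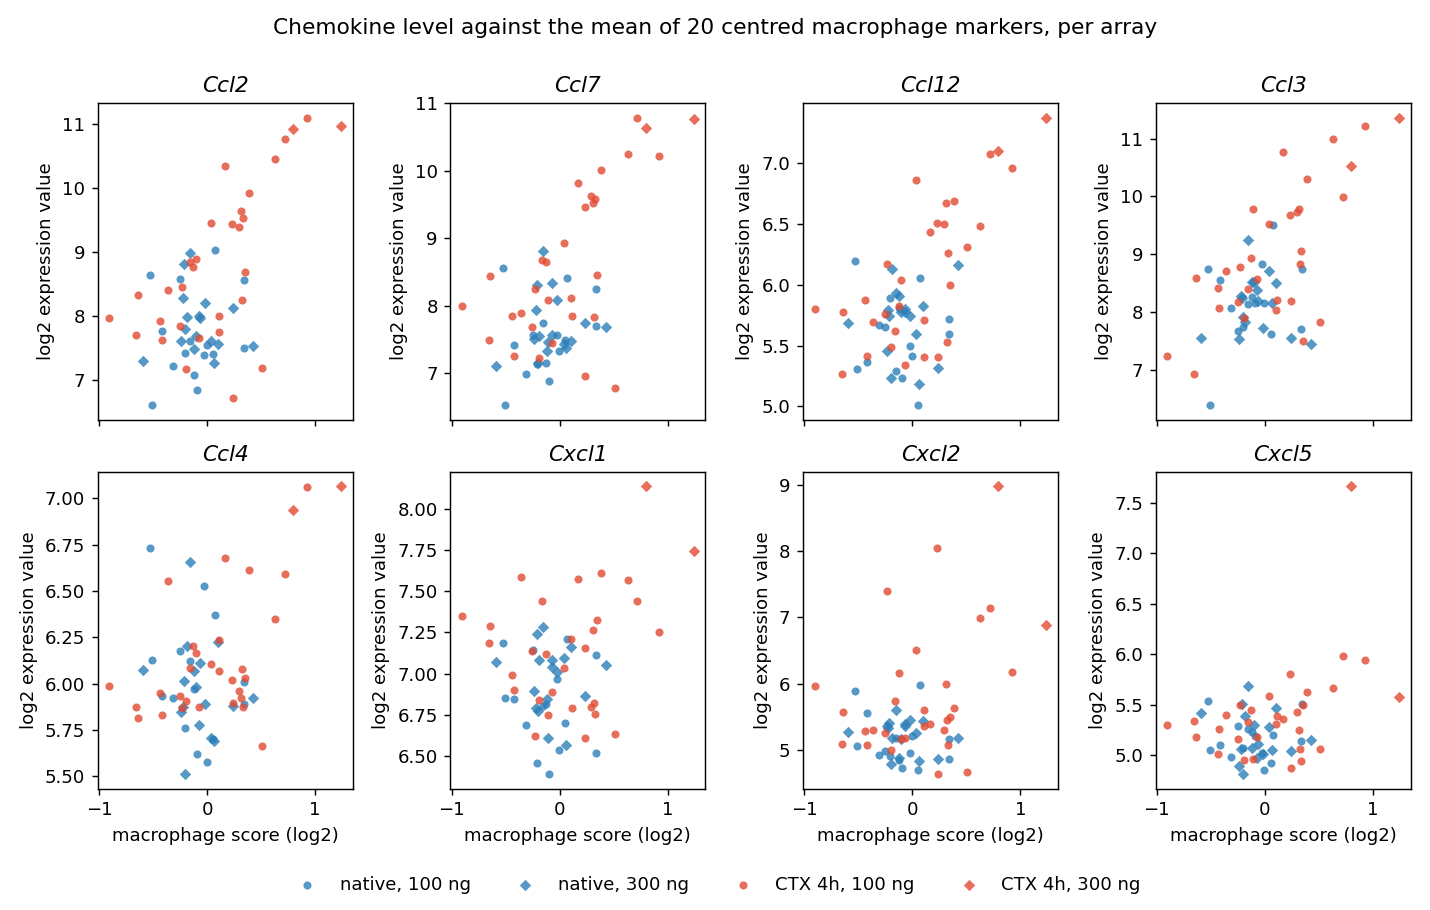
Log2 level of each chemokine gene (y axis) against the macrophage score (x axis, mean of 20 centred marker genes in log2 units), 1 point per array, coloured by group and shaped by RNA input. Among treated arrays Ccl2, Ccl7, Ccl12 and Ccl3 are highest where the score is above 0.6, while Cxcl1 has no visible slope.

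The comparison of the groups was repeated with marker scores held. With RNA input held, the stromal score was higher in CTX 4h by 0.40 ± 0.11 (SE) and the neutrophil score differed by -0.018 ± 0.24. Within series 1, 8 and 9 and at 300 ng the stromal score differed by 0.19, 0.36, 0.39 and 0.89. The neutrophil score differed by 0.54, -0.43, -0.27 and 0.58 in these sets. With the macrophage score in the model 5 of the 8 passed, where 0.752% of all genes were called higher. Ccl2 was then higher by 0.93 ± 0.24 log2 (SE, adjusted p = 0.0319), Ccl7 by 0.91 ± 0.23 (adjusted p = 0.0225), Ccl12 by 0.41 ± 0.12 (adjusted p = 0.0471), Cxcl2 by 0.75 ± 0.21 (adjusted p = 0.044) and Cxcl1 by 0.36 ± 0.091 (adjusted p = 0.0247). Ccl3 had 0.62 ± 0.23 (adjusted p = 0.128). With the macrophage, stromal and neutrophil scores together 0 of the 8 passed by limma, though 7 had an unadjusted p under 0.05, as did 15.9% of all genes. Ccl2 then differed by 0.73 ± 0.24 log2 (SE, adjusted p = 0.12) and Cxcl1 by 0.34 ± 0.096 (adjusted p = 0.0648).

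The mean of 60 small nucleolar and other small RNA genes was higher in CTX 4h by 0.77 ± 0.20 log2 with RNA input held (SE). The number series were not held there. Within series 1, 8 and 9 this mean differed by 0.15, 0.48 and 0.49 log2, and at 300 ng by 0.75. In series 1 it was low in both groups, with medians of -1.15 in CTX 4h and -1.30 in native arrays. In series 8 these medians were 0.45 and -0.03. With the small RNA mean and RNA input in the model 0 of the 8 passed by limma. Then 7 had an unadjusted p under 0.05 (8.85% of all genes), and Ccl2 differed by 0.83 ± 0.26 log2 (SE, adjusted p = 0.219).

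**Figure D4:**
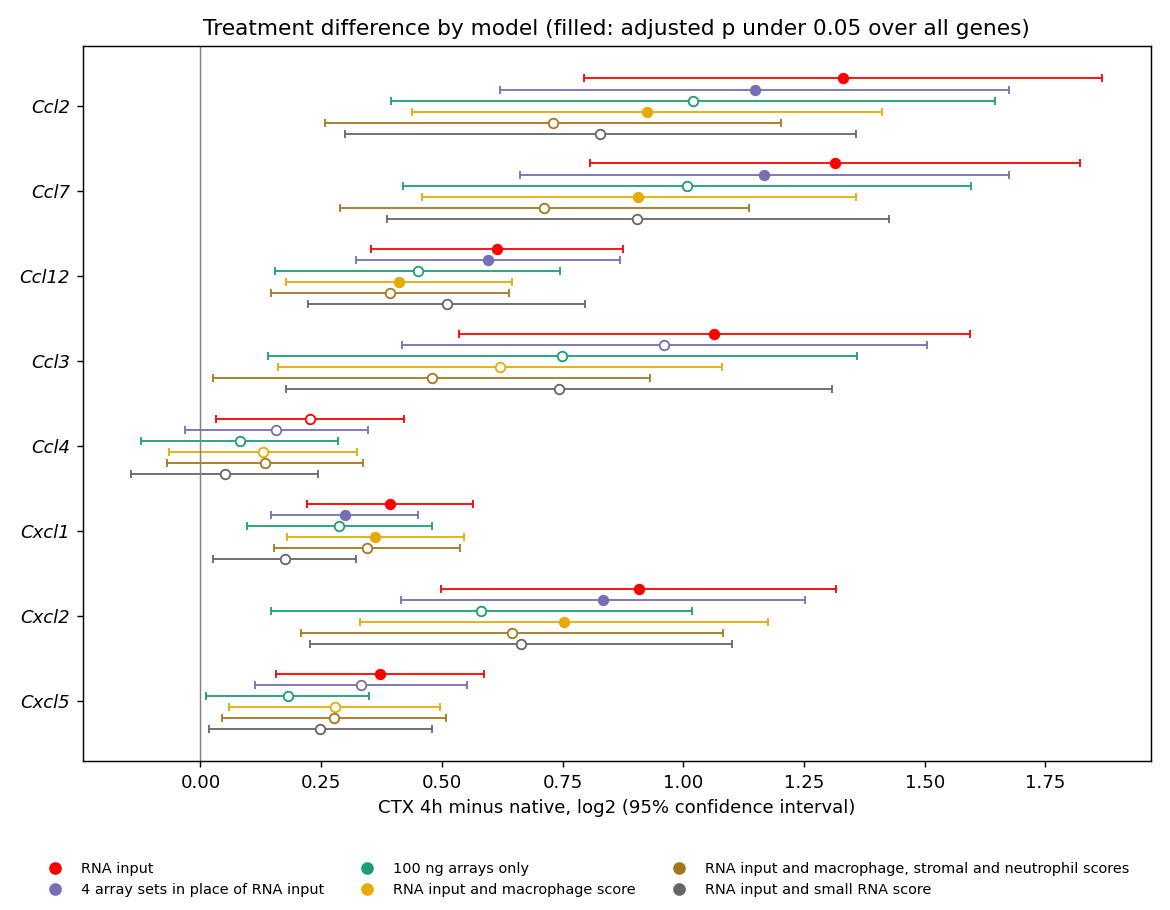
CTX 4h minus native on the log2 scale (x axis) for each chemokine gene under 6 models, with 95% confidence intervals. Filled points have an adjusted p under 0.05 over all genes. All estimates are above 0, and the filled ones number 7 with RNA input, 5 with the 4 sets, 5 with the macrophage score and 0 in the other 3 models.

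Receptors of these chemokines were measured beside them. Of 7 receptors and scavengers measured, 1 was higher, Ccr1, which encodes a receptor of CCL3 and CCL7. Its level rose by 0.56 ± 0.12 log2 (SE, adjusted p = 0.00493), from a mean of 5.06 ± 0.35 (SD, n = 32) in native to 5.52 ± 0.50 (SD, n = 31) in CTX 4h lymphomas with RNA input not held. In the 100 ng arrays it did not pass (0.42 log2, adjusted p = 0.176). Ccr2 (0.17, adjusted p = 0.572) and Cxcr2 (0.081, adjusted p = 0.908), named here for their ligands among the 8, did not pass. The median difference of the list was 0.17 log2, and 4 of the 7 had an unadjusted p under 0.05, against 17.5% of all genes.

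Of 26 other chemokines, 3 were higher and 0 lower, with a median of 0.087 log2. Ccl9 rose by 1.26 ± 0.20 log2 (SE, adjusted p = 1.17e-04) and Ccl6 by 1.19 ± 0.21 (adjusted p = 5.24e-04), both of which encode ligands of CCR1. In RefSeq's gene order these lie side by side, just before Ccl3 and Ccl4. Ccl11, which encodes the eosinophil attractant eotaxin, rose by 0.79 ± 0.21 log2 (SE, adjusted p = 0.0286), and it lies between Ccl7 and Ccl12. In the 100 ng arrays Ccl9 alone of these kept its call (1.19 log2, adjusted p = 0.0132), with Ccl6 at 1.05 (adjusted p = 0.0555) and Ccl11 at 0.49 (adjusted p = 0.428).

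Inflammatory cytokine and prostaglandin genes, several of which induce chemokines, had 3 of 13 higher, 0 lower and a median of 0.26 log2. An unadjusted p under 0.05 was found for 9 of the 13, against 17.5% of all genes. Ptgs2, which encodes the inducible cyclooxygenase, rose by 0.76 ± 0.16 log2 (SE, adjusted p = 0.00254), Il6 by 0.81 ± 0.21 (adjusted p = 0.0214) and Il1b by 0.74 ± 0.21 (adjusted p = 0.0411). None of them passed in the 100 ng arrays (adjusted p of 0.0974, 0.377 and 0.493). The list of NF-kB feedback and mRNA decay genes had 0 of 13 called by limma (median 0.10 log2). At an unadjusted p under 0.05, 3 of the 13 passed, against 17.5% of all genes. No list was tested as a whole.

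Markers of cells that secrete or respond to these chemokines are given beside them. Of 6 monocyte markers 0 were called by limma and 3 had an unadjusted p under 0.05 (median 0.39 log2). Of 13 neutrophil markers 0 passed by either (median 0.012 log2). The neutrophil score was wide in both groups, from -0.97 to 2.60 in CTX 4h and from -1.42 to 2.84 in native lymphomas. Stromal and endothelial markers were higher in 6 of 12, led by the collagen genes Col3a1 (0.59 log2) and Col1a1 (0.60), Sparc (0.54) and Postn (0.85), with adjusted p from 0.0142 to 0.0228. Their score ran from -0.73 to 0.99 in CTX 4h and from -0.69 to 0.47 in native lymphomas. Of 9 adipocyte markers 2 were higher, Lpl (1.17 log2, adjusted p = 0.00723) and Fabp4 (0.88, adjusted p = 0.0455), with 7 at an unadjusted p under 0.05. The median of the list was 0.84 log2, and the difference of its score, adjusted for RNA input, was 0.78 ± 0.28 (SE). The sets were uneven, with differences of -0.045, 0.235 and 0.88 in series 1, 8 and 9 and 1.59 at 300 ng. The adipocyte score ran from -1.78 to 2.13 in CTX 4h and from -1.78 to 1.06 in native lymphomas.

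Of 12 T-cell and NK-cell markers 1 was lower, the NK receptor gene Ncr1 (-0.43 log2, adjusted p = 0.0433), and 0 were higher. Dendritic cell (0 of 8) and B-cell markers (0 of 9) had none called, with 0 and 1 at an unadjusted p under 0.05 and B-cell markers at a median of -0.27 log2. In the 100 ng arrays alone, Cd14 (0.86 log2, adjusted p = 0.00511) was the only marker of these lists to pass. How far the cells these lists mark account for the chemokine levels was not tested.

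Across all 63 arrays, once the mean of each group within each set is removed, the 8 genes fell into a tight and a loose part. Ccl2 and Ccl7, neighbours in RefSeq's gene order, had r = 0.94, each the gene most like the other among 19937. Ccl2 had r = 0.78 with Ccl3 and 0.77 with Ccl12, but 0.52 with Cxcl2, 0.45 with Cxcl1 and 0.43 with Cxcl5. Ccl3 and Ccl4 are adjacent as well, and their r was 0.56. Cxcl2 and Cxcl5 had r = 0.68, while Cxcl1 had 0.34 with Cxcl2 next to it. These r share the arrays and are given without a test.

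The genes most like each chemokine were listed by the same measure. Rab7b, which encodes an endosomal GTPase of myeloid cells, came next after a chemokine for Ccl2 (0.81), for Ccl7 (0.84) and for Ccl3 (0.75). Tnfaip6, which encodes a hyaluronan-binding protein, followed for Ccl7 (0.78), and Lilrb4a, an inhibitory receptor gene of myeloid cells, stood with Ccl2 and Ccl7 among the 3 most like Ccl12 (0.71). Cxcl2 was most like Ptgs2 (0.78), Cd14 (0.72) and Il1b (0.68). Cxcl5 was most like Cxcl3 (0.75), a CXCR2 ligand gene of the same cluster, then Ptgs2 (0.70) and Cxcl2 (0.68). Cxcl1 had other partners, Mir320 (0.74), E130304I02Rik (0.73) and Megf6 (0.72). Those of Ccl4 were Vmn1r15 (0.69), the stress factor gene Atf3 (0.68) and A1bg (0.68).

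**Figure D5:**
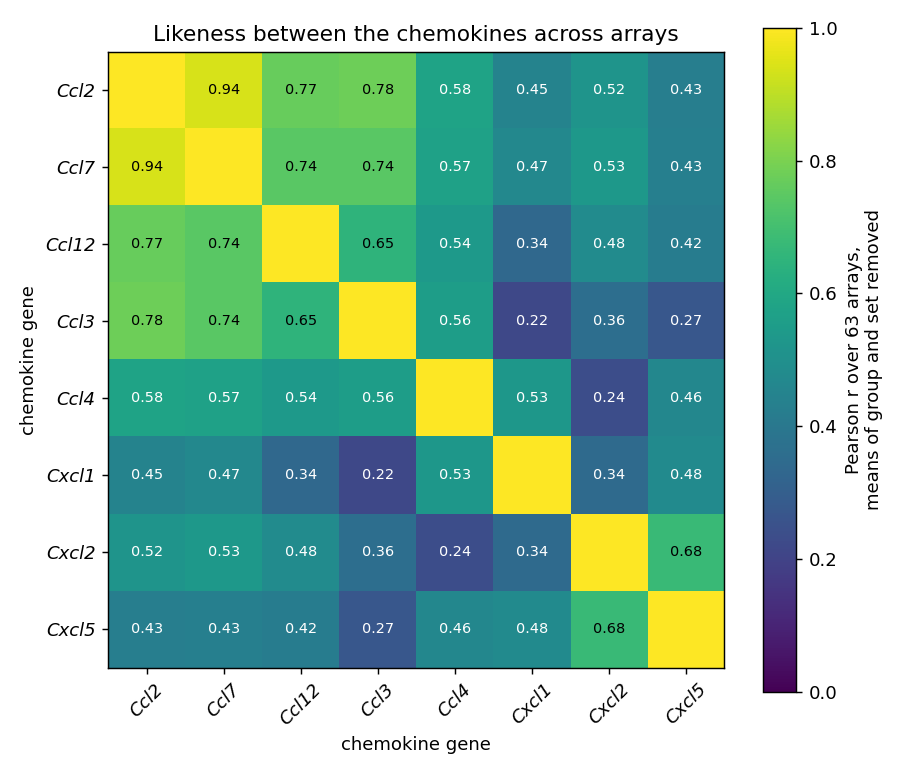
Pearson r between the 8 chemokine genes over 63 arrays after removing the mean of each group within each set (colour scale from 0 to 1, values in the cells). Ccl2, Ccl7, Ccl12 and Ccl3 form a block with r from 0.65 to 0.94, and the CXC genes have lower values with them, 0.53 or less.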

How the data were processed

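RNA of 63 lymph node lymphoma samples was hybridised to Affymetrix arrays after labelling of 100 or 300 ng. The deposited values are log2 expression levels, made by the authors with Partek 6.5 and RMA per the submitters' processing notes. Such background correction compresses differences of dim genes. The arrays normalized together are not named there. No depth applies to arrays, and their number limits the precision.

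Of 35557 probe sets, 21789 had a single symbol in GEO's platform annotation, 1621 had several (not named) and 12147 none listed, and 21698 matched RefSeq (GRCm38.p6). Each of 19938 genes took its brightest such probe set, by the mean over arrays. No pair of arrays was a duplicate (highest correlation 0.992).

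Groups came from the treatment label. Models were limma 3.58.1 (R 4.3.3; lmFit, eBayes), two-sided, with Benjamini-Hochberg adjustment over all genes. Correlations used 100000 permutations for every gene. The code was tested on simulated data. Alternatives were other terms in the model, scaling, probe set rule, dim genes, variance model, array weights, cell and small RNA scores and single arrays left out.

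Chemokines and gene lists were chosen with earlier results of these data known. Named genes are the 8, the 3 genes most like each and, of each list, up to 4 called genes, those of smallest p. Some genes of the lists were not analysed here. Promoters are from RefSeq. Figures were drawn with matplotlib 3.10.9.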

Additional observations from a re-analysis of the deposited data

Results flagged for a closer look

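Cxcl2 in CTX 4h replicate 29 had a log2 level of 7.40, far from the other 5 treated arrays of number series 1, the highest of which was at 5.61. The gap was 0.649 of the range of these 6 arrays, past the Dixon limit of 0.625. The check needs 4 to 10 arrays, so of each gene it covered CTX 4h arrays of series 1 and 8 and native arrays of series 1 and 9. Of these 32 checks this was the only one past the limit, while chance alone gives about 1 in 20, and over all genes 11.3% were past the limit.

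The difference between CTX 4h and native lymphomas in Cxcl5 was greater at 300 than at 100 ng by 1.25 log2 (limma interaction, adjusted p = 0.0397). It rests on 2 treated arrays at 300 ng, with levels of 5.57 and 7.66.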

How the results depend on the processing

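The count of chemokines higher in CTX 4h, 7 of 8, was 5 without the RNA input term, 5 with the 4 sets in its place, 6 with a common median and 7 with quantile normalization, the mean of probe sets, or trend and robust variance. It was 8 with array weights, which called 5828 of all genes, and 5 to 7 with each array left out in turn. It was 3 among genes above the median level, as only Ccl2, Ccl7 and Ccl3 are in that set. It was 0 in the 100 ng arrays, with or without the number series in the model, 0 with the 3 cell scores, 0 with the small RNA score and 1 without both 300 ng CTX 4h arrays. The cause was not tested. At 300 ng no count is given without CTX 4h replicate 1 or 2, as 1 treated array is left. The interaction count was 1 with RNA input in place of the sets. Signs turned for values near 0. With arrays left out, Ccl4 in series 8 ran from -0.022 (native replicate 18) to 0.062 (19) and Cxcl2 in series 9 from -0.011 (21) to 0.243 (22). Ccl4 was at -0.014 at 100 ng with the series in the model. Ccl3 differed by 0.027 between RNA inputs in native lymphomas without native replicate 25. Native slopes turned to 0.148 (Ccl12) and 0.011 (Cxcl5) without native replicate 25, to 0.059 (Ccl12) and 0.023 (Cxcl1) with the 4 sets, and to -0.198 (Ccl2), 0.082 (Ccl12) and -0.121 (Ccl3) at 300 ng. The CTX 4h slope of Cxcl1 was -0.018 with the score without its called markers. The 100 ng settings with series, the reduced scores, the leaving out of both 300 ng arrays and the RNA input interaction were chosen after seeing the data. All-gene counts were 241 to 1585 with an array left out, 1585 without native replicate 25. Of 8 genes, 5 have a mean level below the median of gene means, where signal over background limits what can be seen. No paired analysis was possible because each array carried its own lymphoma number.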

Other observations

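Among native lymphomas, 3 arrays held the highest level of all 8 chemokines. Native replicate 22 was highest for Ccl2 (9.03), Ccl3 (9.50) and Cxcl2 (5.97), native replicate 1 for Ccl7 (8.81), Cxcl1 (7.28) and Cxcl5 (5.69), and native replicate 25 for Ccl12 (6.20) and Ccl4 (6.73). Native replicate 24 was lowest for Ccl2 (6.60), Ccl7 (6.52) and Ccl3 (6.39).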
